A study of Mus musculus with 13 samples.

Results

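Small nucleolar RNA (snoRNA) genes were followed in the liver RNA of diet-induced obese mice. They were taken as the genes whose probe sets carried a single gene symbol beginning with Snord or Snora and a digit, and where a gene had several probe sets the one with the highest mean over the 13 arrays was used. This gave 73 of the 22180 genes on the arrays, 47 of the box C/D class (Snord) and 26 of the box H/ACA class (Snora). RefSeq lists 72 of the 73 as snoRNA and Snord73b as snRNA. Expression is given on the log2 scale of the deposited values, on which a difference of 1 is a doubling of signal. Genes with a mean below 3.95 were not tested, which left 13308 genes, with 43 C/D and 25 H/ACA genes among them. Snord92, at a mean of 3.96, was the snoRNA gene just inside this limit and Snora19, at 3.69, the one just outside. The other 4 genes below it were Snord19 (3.56), Snord90 (3.32), Snord85 (3.29) and Snord91a (2.93).

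SnoRNAs are short nuclear RNAs that guide enzymes to ribosomal RNA by base pairing. Box C/D RNAs, bound by the methyltransferase fibrillarin, guide the methylation of ribose, and box H/ACA RNAs, bound by the pseudouridine synthase Dkc1, guide the conversion of uridine to pseudouridine. A few of each class take part in the cleavage of the ribosomal RNA precursor instead. In mammals most lie in introns of ribosomal protein genes, other housekeeping genes or non-coding Snhg genes, and are trimmed from the excised intron. Their level is therefore set by the host gene's transcription and by their own processing and stability.

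The mice were male C57Bl/6J, 6 weeks old when a diet with 60% fat was started, and every group had eaten it for 4 weeks before the treatments. For 4 more weeks, 4 arrays represent mice given canagliflozin, an inhibitor of the renal glucose transporter SGLT2, at 25 to 30 mg/kg with the diet (CANA), 5 represent mice restricted in calories by 15 to 30% to the weight of the CANA mice (CR), and 4 represent mice left on the diet alone (HFD). The labels also give each array a serial number. Numbers 9 to 14 were on 6 arrays (replicates 3 and 4 of CANA, 4 and 5 of CR, 3 and 4 of HFD), and numbers 1 to 8, without 7, were on the other 7. What the number counts is not stated, so it is not known whether it follows animals, extractions or hybridisations. The split of the arrays by this number was chosen with the snoRNA values in view. Differences between the number sets are therefore given as a description, with no test, and each is the mean of arrays 9 to 14 minus the mean of arrays 1 to 8.

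The array medians lay between 4.07 and 4.13. The liver label was checked on 8 hepatocyte markers, all of which were tested, at means of 9.60 to 14.0. Their median difference between the number sets was 0.00. The 8 Kupffer cell markers were all lower on arrays 9 to 14 (median -0.23), where their summed linear signal ranged from 650 to 1277 against 978 to 1419 on arrays 1 to 8. The 8 sinusoidal endothelial markers were all higher there (median 0.14), and the part of these cells in the snoRNA differences was not tested. In whole-liver RNA, fewer cells of a type and less RNA per cell cannot be told apart. The labels do not tie each array to a separate animal, and a p-value here speaks only of the spread among the arrays, which may be technical.

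Of the 73 genes, 64 lay within the span of exactly 1 other RefSeq gene: 18 in ribosomal protein genes, 15 in non-coding genes and 31 in other protein-coding genes. A further 6 lay within several genes, and 3 (Snord13, Snord89 and Snord118) within none. The C/D entries had a median length of 68 bases and the H/ACA entries 118.5 bases. RefSeq hairpins of microRNA genes overlap 2 of the H/ACA genes, and they are shown because they carry the sequence of the RNAs measured. Snora34, which lies within Kansl2 and gave one of the largest differences below, shares 73 bases with the 117-base Mir1291 hairpin at chr15:98519762-98519878 (minus strand, GRCm38.p6, RefSeq). Snora19 lies within Eif3a, and all 56 bases of its entry are in the 69-base Mir3084-2 hairpin at chr19:60774329-60774397 (minus strand). Capitals mark the bases that belong to the snoRNA gene, and both hairpins are read 5′ to 3′.
Mir1291 with Snora34: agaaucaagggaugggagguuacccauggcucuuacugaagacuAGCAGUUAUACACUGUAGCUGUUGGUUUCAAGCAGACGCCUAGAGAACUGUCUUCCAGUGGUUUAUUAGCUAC
Mir3084-2 with Snora19: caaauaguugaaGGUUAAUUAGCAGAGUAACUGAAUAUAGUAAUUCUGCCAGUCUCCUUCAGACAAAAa

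Most snoRNA genes gave strong signals. The C/D genes had a median of 8.16 over the 13 arrays (2.93 to 11.6) and the H/ACA genes 6.99 (3.69 to 12.5). The brightest C/D genes were Snord104 (11.6), Snord99 (11.5) and Snord55 (11.0), and the brightest H/ACA genes Snora33 (12.5), Snora21 (9.96) and Snora16a (9.78). Probe sets differ in affinity, so these means do not order the RNAs by abundance. At the other end, Snora35, which lies in the serotonin receptor gene Htr2c and is known as a brain snoRNA, had a mean of 4.29 and stayed between 4.00 and 4.67 on all 13 arrays.

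SnoRNA levels varied more between arrays than those of most genes. The distance between a gene's lowest and highest array had a median of 1.76 over the 47 C/D genes and 1.29 over the 26 H/ACA genes, against 0.60 over all genes tested. Tested C/D genes also varied together, with a median Pearson r of 0.72 over their 903 pairs, against 0.43 for H/ACA pairs, 0.57 between the classes and 0.01 for pairs of any tested genes. These r values are of deviations from the group means over the same 13 arrays and share any effect of an array as a whole. The ranges and r values also include the difference between the number sets. Members were chosen on that difference, so nothing is read from their size.

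The class level of an array, the mean deviation of all 47 C/D or all 26 H/ACA genes from their own means, separated 4 arrays from the rest for C/D genes. It was 0.70, -0.14, -0.29 and -0.48 in CANA replicates 1 to 4, 0.35, -0.21, 0.04, -0.25 and -0.17 in CR replicates 1 to 5, and 0.67, 0.65, -0.30 and -0.57 in HFD replicates 1 to 4. The C/D level was thus highest in CANA 1, HFD 1, HFD 2 and CR 1, which hold serial numbers 1, 2, 5 and 3. The H/ACA level was 0.44, 0.18, -0.19 and -0.29 in the CANA arrays, 0.08, -0.11, 0.17, -0.24 and 0.00 in the CR arrays, and 0.20, 0.40, -0.20 and -0.44 in the HFD arrays. H/ACA genes spanned a narrower range, and CANA 2 and CR 3 lay above CR 1. Over arrays 9 to 14 the C/D level averaged -0.34 ± 0.15 (SD, n = 6), against 0.29 ± 0.40 over arrays 1 to 8 (n = 7). For H/ACA genes the averages were -0.23 ± 0.15 and 0.19 ± 0.19 over the same sets.

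**Figure D1:**
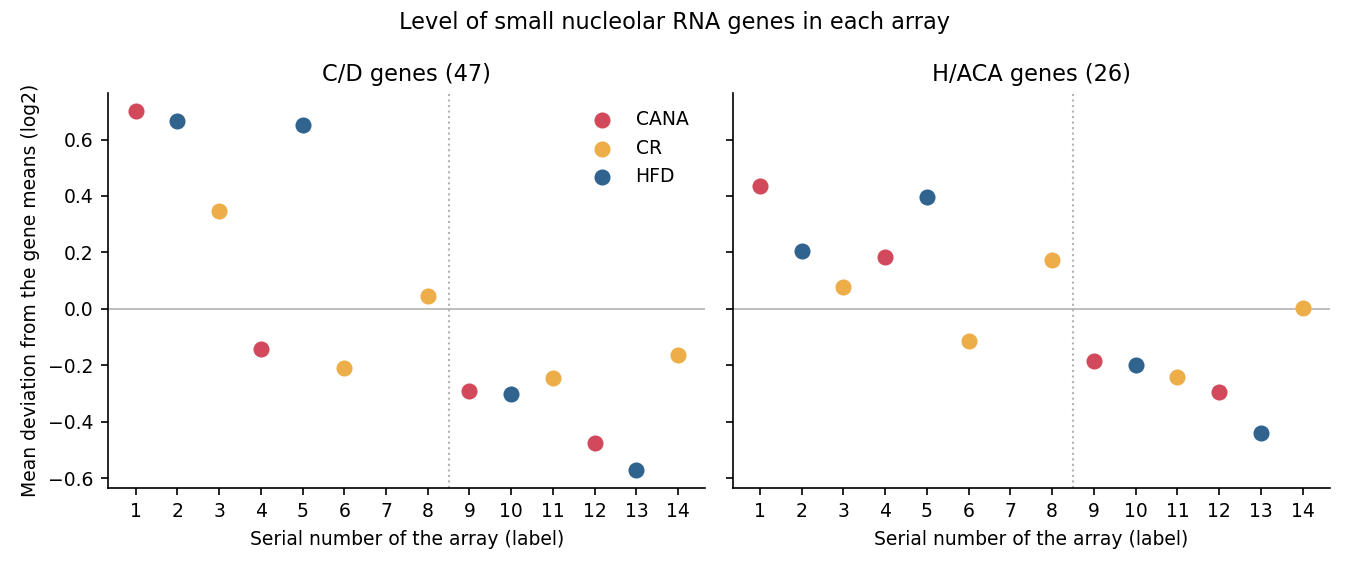
Class level of C/D and H/ACA snoRNA genes on each array (mean deviation of the 47 or 26 genes from their own means, log2), by the serial number of the label. The C/D level reached 0.35 to 0.70 on serial numbers 1, 2, 3 and 5 and was at most 0.04 on every other array.

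The labels also hold a second number for each array. CANA 1, CR 1, HFD 1 and HFD 2 carry second numbers 9, 4, 6 and 7, while the other arrays carry 13 to 24. The C/D level was 0.35 to 0.70 on arrays with second numbers 4 to 9 and -0.57 to 0.04 on those with 13 to 24, where the serial number placed CANA 2 (serial number 4, -0.14) between CR 1 and HFD 2. The H/ACA levels of the same arrays overlapped, at 0.08 to 0.44 and -0.44 to 0.18. HFD thus holds 2 of these arrays, and CANA and CR hold 1 each. What this second number counts is not stated either, and its part in the differences between arrays was not tested.

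Each of the 47 C/D genes taken as members had a lower mean on arrays 9 to 14 than on arrays 1 to 8, with a median difference of -0.63, and 22 of the 26 H/ACA genes did, with a median of -0.39. Among the tested genes, 25 of 43 C/D genes (58.1%) and 10 of 25 H/ACA genes (40%) were lower by over 0.5, where 0.443% of all genes tested were. No snoRNA gene was higher by over 0.5, against 0.804% of all genes. Below 0 were 43 of 43 C/D and 22 of 25 H/ACA genes, against 52.3% of all genes, whose median was -0.01. SnoRNA genes made up 35 of the 59 genes lower by over 0.5 and 11 of the 13 lower by over 1. The other 2 were Moxd1 (-1.91), a monooxygenase-like protein gene, and AF357399 (-1.35), which RefSeq also lists as a snoRNA. Arrays 9 to 14 all lay below arrays 1 to 8 for 7 C/D genes (Snord35b, Snord49a, Snord49b, Snord55, Snord61, Snord87 and Snord89) and 2 H/ACA genes (Snora28 and Snora74a), against 0.316% of all genes. For no snoRNA gene did arrays 9 to 14 all lie above, against 0.233% of all genes. The members were chosen on this contrast, so nothing is read from these shares.

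**Figure D2:**
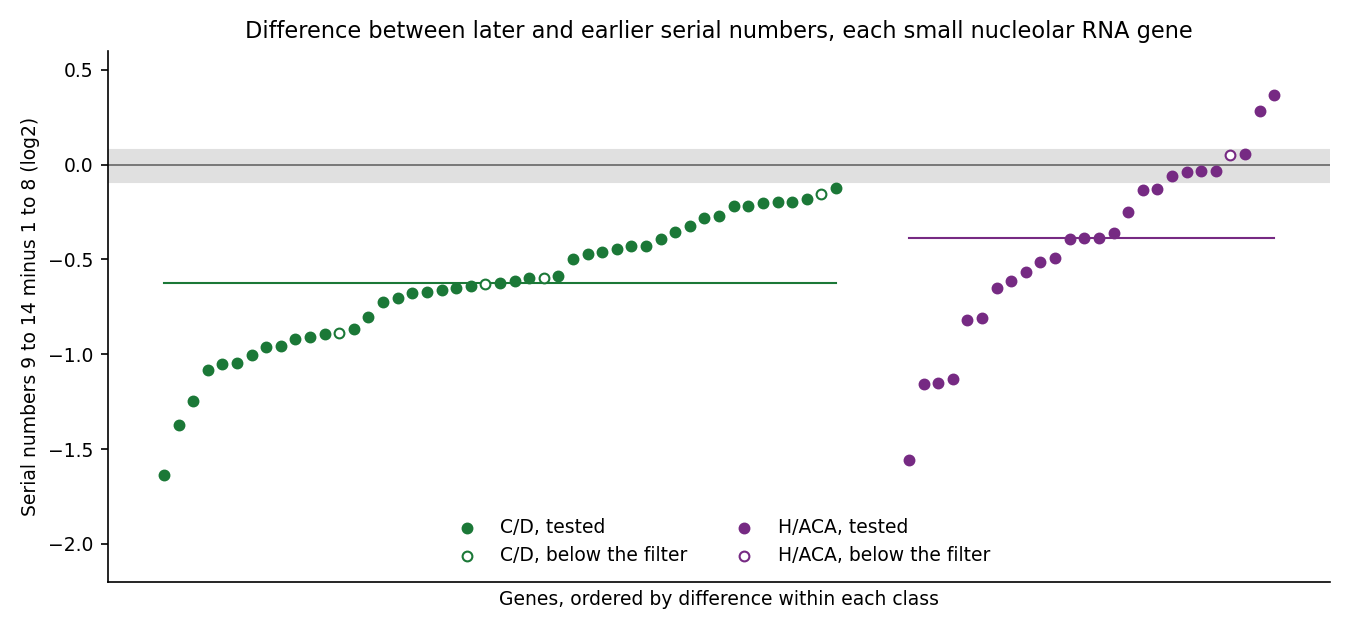
Mean log2 value on arrays 9 to 14 minus that on arrays 1 to 8 for each of the 73 snoRNA genes, ordered within class; lines mark class medians, open points genes below the filter and the grey band the middle 50% of all genes tested. Every C/D gene lay below 0 (-1.64 to -0.13), and H/ACA genes ran from -1.56 to 0.37.

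The medians were below 0 in each group and closest to it in CR. Tested C/D genes had medians of -0.65 in CANA, -0.26 in CR and -1.14 in HFD, and 30, 8 and 39 of the 43 were lower by over 0.5. For H/ACA genes the medians were -0.43, -0.21 and -0.55, with 11, 5 and 15 of 25. Over all genes tested, 1.72% in CANA, 0.804% in CR and 1.77% in HFD were lower by over 0.5. These within-group values rest on 2 arrays against 2 in CANA and HFD and on 2 against 3 in CR. The C/D levels of the arrays numbered 1 to 8 were 0.67 and 0.65 in HFD, 0.70 and -0.14 in CANA, and 0.35, -0.21 and 0.04 in CR. In CANA and CR the C/D medians thus rested largely on replicate 1. Whether the difference depends on the treatment was not tested.

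The spread among arrays of a set differed as well. The SD of a C/D gene had a median of 0.27 over arrays 9 to 14, against 0.49 over arrays 1 to 8, and for H/ACA genes 0.23 against 0.42. All genes tested had 0.16 and 0.17. Arrays 1 to 8 were therefore mixed for snoRNAs, with high and low arrays among them.

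Snord35b had the largest difference, -1.64. Its values were 7.69, 5.76, 5.53 and 4.93 in CANA, 7.45, 5.90, 5.85, 5.27 and 5.69 in CR, and 7.71, 7.72, 5.48 and 4.49 in HFD. CANA 1, CR 1, HFD 1 and HFD 2 stood more than 1 above all other arrays, and the 3 groups overlapped. Its mean was 5.23 ± 0.45 on arrays 9 to 14, against 6.87 ± 0.97 on arrays 1 to 8 (SD), a ratio of 0.322.

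Snord11, from an intron of the snoRNP protein gene Nop58, followed with -1.37. It had 8.74, 5.40, 6.23 and 5.92 in CANA, 8.43, 5.73, 6.81, 6.01 and 6.12 in CR, and 8.38, 8.53, 6.25 and 5.84 in HFD. The same 4 arrays were high, at 8.38 to 8.74, and the lowest of all was CANA 2, which is among arrays 1 to 8. Snord73a, within Rps3a1, differed by -1.25 and had 7.82, 4.69, 5.06 and 5.08 in CANA, 7.32, 4.87, 5.49, 5.16 and 5.82 in CR, and 7.66, 7.09, 5.04 and 4.87 in HFD. For Snord73a too, CANA 2 was the lowest array. Snord58b (-1.08, within Rpl17), Snord65 (-1.05, within 2410006H16Rik) and Snord52 (-1.04, within 1110038B12Rik) completed the 6 largest C/D differences.

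**Figure D3:**
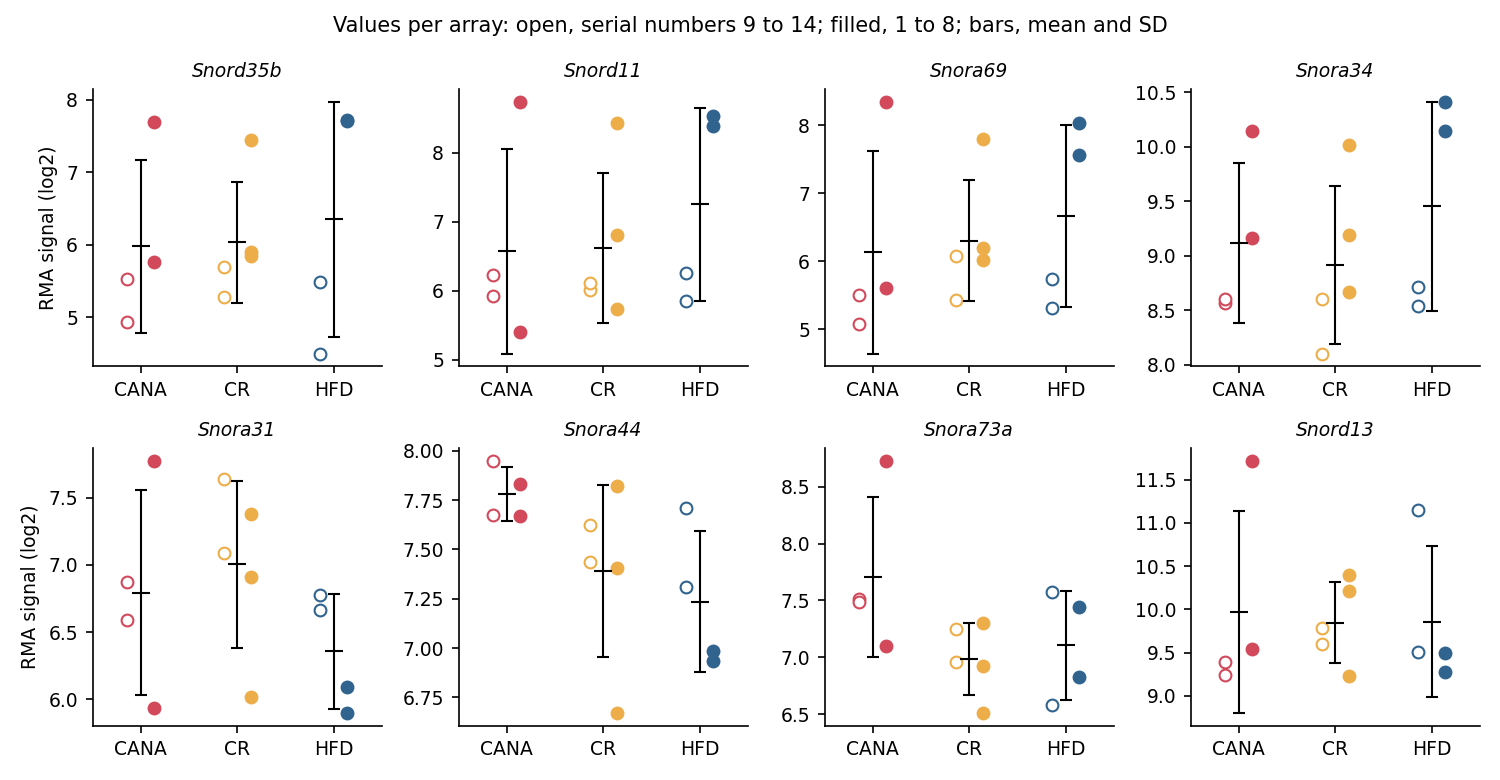
Log2 values of selected snoRNA genes on the 13 arrays, by group (CANA, CR, HFD) and serial number set (open points 9 to 14, filled points 1 to 8), with the mean and SD of each group. Snord35b, Snord11 and Snora69 were high on the same 4 arrays, whereas Snora31 was low on them and Snord13 was high on CANA 2 and HFD 3.

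The 3 brightest C/D genes differed by less. Snord104 had -0.64, Snord99 -0.71 and Snord55 -0.67. Snord55 had 11.53, 11.12, 10.95 and 10.76 in CANA, 11.25, 11.11, 10.98, 10.72 and 10.59 in CR, and 11.60, 11.48, 10.57 and 10.18 in HFD. In every group its arrays numbered 9 to 14 were the lowest, and the groups overlapped. Across tested genes the rank correlation of the difference with the mean level was 0.03 for C/D genes (n = 43) and -0.33 for H/ACA genes (n = 25), and with gene length 0.07 and -0.17. These are correlations across genes, which are not independent replicates.

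Among H/ACA genes Snora69, within the ribosomal protein gene Rpl39, had the largest difference, -1.56. It had 8.35, 5.60, 5.50 and 5.08 in CANA, 7.80, 6.19, 6.02, 5.43 and 6.08 in CR, and 7.57, 8.03, 5.74 and 5.30 in HFD. The 4 arrays that were high for Snord35b were high for Snora69 as well. Snora34, whose sequence is shown above, differed by -1.16. It had 10.14, 9.16, 8.56 and 8.60 in CANA, 10.02, 9.19, 8.67, 8.10 and 8.61 in CR, and 10.14, 10.41, 8.72 and 8.54 in HFD. Here too the 4 arrays were highest, at 10.02 to 10.41, with CANA 2 and CR 2 next. Snora74a (-1.15), Snora15 (-1.13), Snora28 (-0.82) and Snora62 (-0.81) came next. Snora62, within the laminin receptor gene Rpsa, peaked elsewhere: its highest array was CR 3 at 10.53, followed by HFD 2 at 10.29.

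A few snoRNA genes did not follow their class. The Pearson r of a tested gene with the mean deviation of the other tested genes of its class, over the 13 arrays, had a median of 0.87 for C/D and 0.67 for H/ACA genes. It was below 0 for 6 genes: Snora31 (-0.37), Snord13 (-0.31), Snora44 (-0.26), Snord53 (-0.13), Snora35 (-0.05) and Snora61 (-0.01). These r values include the difference between the number sets, on which members were chosen. Snora35, at a mean of 4.29, lay near the limit for testing, and its r is not read as a departure from its class. Snora31, within Tpt1, had the highest difference between the number sets, 0.37. Its values were 5.93, 7.77, 6.88 and 6.59 in CANA, 6.01, 6.91, 7.38, 7.09 and 7.64 in CR, and 5.90, 6.09, 6.78 and 6.66 in HFD. The 4 arrays on which C/D genes were high were the 4 lowest for Snora31. Snora44 (0.28) and Snora61 (0.06) were the other tested genes above 0, and both lie within Snhg12. Single arrays moved these: Snora31 was 0.57 without CANA 2 and 0.23 without CR 5, Snora44 was 0.17 without CR 1, and Snora61 was 0.19 without CANA 2 and -0.01 without CR 1.

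The snoRNAs known for roles beyond modification by the usual guides behaved unlike each other. Snord118 (U8), required for processing of the large-subunit ribosomal RNAs, differed by -0.87. It had 7.57, 5.78, 5.87 and 5.66 in CANA, 6.89, 5.37, 5.86, 5.64 and 5.74 in CR, and 7.48, 6.59, 5.73 and 5.21 in HFD. Its high arrays were again CANA 1, CR 1, HFD 1 and HFD 2. Snord13 (U13), which pairs with the small-subunit RNA, had 9.54, 11.72, 9.24 and 9.39 in CANA, 9.22, 10.21, 10.39, 9.60 and 9.79 in CR, and 9.49, 9.28, 11.15 and 9.51 in HFD. Its difference of -0.20 was 0.09 without CANA 2 and -0.47 without HFD 3. It was highest in CANA 2 and HFD 3, neither of which was high for Snord118. Snora73a and Snora73b, the near-identical U17 RNAs needed for early cleavage of the precursor, both differed by -0.04 between the number sets, a value whose sign rested on single arrays: without CANA 2 it was 0.21 for Snora73a and 0.22 for Snora73b, without HFD 4 0.09 for both, and without CR 1 -0.16 and -0.19. Without CR 4 it was 0.02 for Snora73a. Snora73a had 7.10, 8.73, 7.51 and 7.49 in CANA, 6.51, 6.92, 7.31, 6.96 and 7.25 in CR, and 7.44, 6.83, 7.58 and 6.58 in HFD. CANA 2 was its highest array, as for Snord13. Snord35a, one of the RNAs from the introns of Rpl13a that were linked to cell death by excess lipid in hamster and mouse cells, differed by -0.68. The other Rpl13a RNAs (Snord32a, Snord33 and Snord34) had only probe sets with several symbols, which were left out of the members and differed by -0.27, -0.34 and -0.22. Of the 43 probe sets with several symbols that name a snoRNA, the 16 of Snord116 held identical values and were higher on arrays 9 to 14 (0.35). Among the other 27, 23 were below 0 (median -0.42, from -1.12 to 0.14). Those above it were Snord14a (0.14), Snord4a (0.12), Snora70 (0.09) and Snora43 (0.02). Snord4a (mean 3.49) and Snora70 (2.90) were under the limit for testing, as were Snora36b (-0.57) and Snord7 (-0.02) among those below 0.

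Host genes showed no difference of this size. For 52 of the snoRNA genes the single host gene was tested, which gave 38 hosts. The hosts' differences between arrays 9 to 14 and 1 to 8 ran from -0.32 to 0.30 with a median of -0.03. None was lower by over 0.5, where 0.443% of all genes tested were. In 47 of the 52 pairs the snoRNA had the lower difference. The snoRNA genes were chosen on this difference and the hosts were not, so nothing is read from that count. The Pearson r of a snoRNA with its host over the 13 arrays had a median of 0.01 (-0.69 to 0.59). Over all 73 snoRNA genes, the median difference was -0.65 in ribosomal protein hosts, -0.65 in non-coding hosts and -0.45 in other protein-coding hosts. Probe sets within introns can also take up signal from unspliced host RNA, which cannot be told apart from the snoRNA on these arrays.

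**Figure D4:**
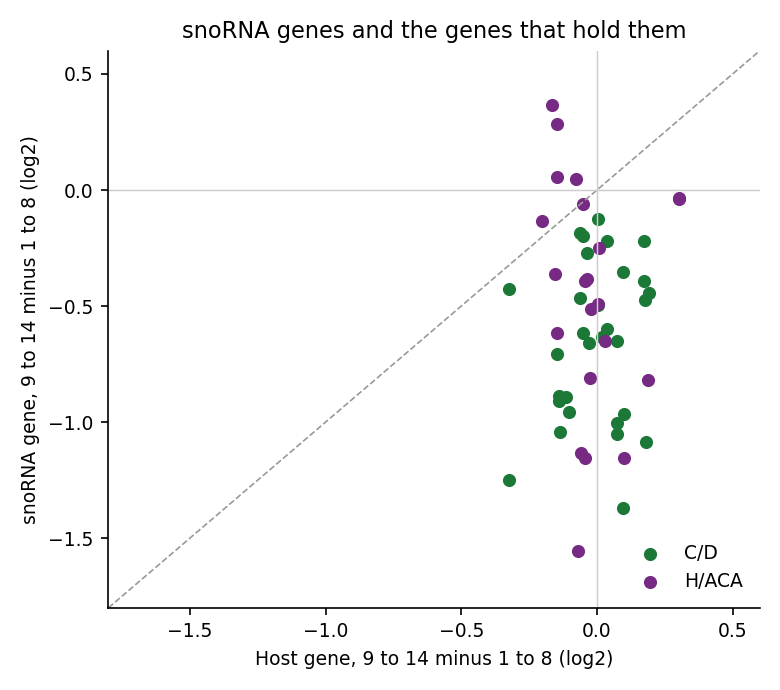
Difference between arrays 9 to 14 and arrays 1 to 8 (log2) of 52 snoRNA genes against that of the gene each lies within. Hosts stayed between -0.32 and 0.30, while these snoRNA genes, which were chosen on this difference, ran from -1.56 to 0.37.

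SnoRNA genes within the same host differed from each other. Among 11 hosts with several snoRNA genes, 25 genes in all, the distance between the lowest and highest difference had a median of 0.38. Snhg12, whose own difference was -0.15, holds Snord99 (-0.71), Snora16a (-0.62), Snora61 (0.06) and Snora44 (0.28). Nop58, at 0.10, holds Snord11 (-1.37) and Snord70 (-0.36). In Rps3a1, at -0.32, Snord73a had -1.25 and Snord73b -0.43, and in Kansl2, at -0.04, Snora34 had -1.16 and Snora2b -0.39. The 2 genes within Gnl3, Snord69 (-0.91) and Snord19 (-0.89), and the pair within Snhg3, Snora73a and Snora73b, differed by no more than 0.02 from each other.

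Protein genes of snoRNA production showed no difference of this size between the number sets. The median was 0.07 over 4 C/D snoRNP protein genes, -0.04 over 4 H/ACA snoRNP protein genes, -0.02 over 11 assembly factor genes, -0.06 over 12 genes of cap modification and trimming of RNA ends, and 0.01 over 22 genes of RNA polymerase I and ribosomal RNA processing. None of these genes was lower by over 0.5, where 0.443% of all genes tested were, so nothing is read from that absence. Non-coding snoRNA hosts (16 tested) had a median of -0.10 and ribosomal protein genes (54 tested) -0.10. Of the 54, 41 were below 0, against 52.3% of all genes tested.

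Some other short RNAs outside the Snord and Snora names were lower on arrays 9 to 14 too. Of 9 structured RNAs tested, Rny1 (-0.88) and Rny3 (-0.77), the Y RNAs bound by the Ro60 protein, and Rnu3a (-0.83), a U3 RNA and itself of the C/D type, were lower by over 0.5. Rn7sk, the RNA that restrains the elongation factor P-TEFb, had -0.04 at a mean of 13.8. The 4 tested Scarna genes, guides of the Cajal body that act on spliceosomal RNAs, had a median of -0.18, and 138 microRNA genes -0.03. Among 12279 protein-coding genes 17 were lower by over 0.5, and their median was -0.01.

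Canagliflozin was compared with the continued diet to ask what the drug changed in these RNAs. None of the 68 tested snoRNA genes passed an adjusted p of 0.05 in CANA against HFD (limma, Benjamini-Hochberg over all genes tested), where 22 of 13308 genes (0.165%) did. At an unadjusted p under 0.05 there were 2 snoRNA genes, Snora44 and Snord88a, against 8.82% of all genes. The median difference, CANA minus HFD, was -0.12 over C/D genes, with 30 of 43 below 0, and 0.01 over H/ACA genes, with 12 of 25 below 0. Over all genes tested 53.9% were below 0, and the median was -0.01. No snoRNA gene had CANA and HFD arrays that did not overlap, against 2.13% of genes higher and 2.77% lower without overlap. The C/D median was 0.07 without HFD 1 and 0.04 without HFD 2, and the H/ACA median was -0.13 without CANA 1, -0.02 without CANA 2 and -0.05 without HFD 4.

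The 4 snoRNA genes taken for their small p in CANA against HFD were Snora44, Snora73a, Snord88a and Snord104. Snora44 had 7.67, 7.83, 7.95 and 7.67 in CANA, against 6.93, 6.99, 7.71 and 7.31 in HFD, a difference of 0.55 (SE 0.21, limma adjusted p = 0.424). Only HFD 3 reached into the CANA range. Snora73a averaged 7.71 ± 0.71 in CANA and 7.11 ± 0.48 in HFD (0.60, SE 0.30, adjusted p = 0.596), and the difference was 0.26 without CANA 2. Snord88a averaged 4.55 ± 0.50 in CANA and 5.03 ± 0.40 in HFD (-0.48, SE 0.22, adjusted p = 0.553), with -0.29 without CANA 2 and -0.28 without HFD 2. Snord104 had 11.89, 11.68, 11.21 and 10.97 in CANA, against 12.90, 12.60, 11.95 and 10.84 in HFD, a difference of -0.63 (SE 0.32, adjusted p = 0.609). HFD 4 was the lowest of these 8 Snord104 values and HFD 1 the highest, and the difference was -1.05 without HFD 4 and -0.36 without HFD 1.

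Caloric restriction, which matched the weight of the CANA mice without the drug, was set against the same 4 HFD arrays. No snoRNA gene passed in CR against HFD (smallest limma adjusted p = 0.999), nor did any of the 13308 genes (0%). None had an unadjusted p under 0.05, against 3.74% of all genes. The median was -0.15 over C/D genes, with 36 of 43 below 0, and -0.03 over H/ACA genes, with 16 of 25 below 0, where 53.6% of all genes were below 0. Without HFD 1 or HFD 2 the C/D medians were 0.03 and 0.06 and the H/ACA medians 0.06 and 0.09, and without CR 4 the H/ACA median was 0.03. Arrays of the groups overlapped for every snoRNA gene, while 0.451% of genes were higher and 0.721% lower without overlap. Snord104 had 11.43, 11.40, 11.58, 11.38 and 11.36 in CR, a narrow range, against the HFD values above, and the difference was -0.64 (SE 0.30, adjusted p = 0.999). It was -1.05 without HFD 4 and -0.37 without HFD 1. Snora31 averaged 7.01 ± 0.62 in CR and 6.36 ± 0.43 in HFD (0.65, SE 0.34), Snora34 averaged 8.92 ± 0.73 and 9.45 ± 0.96 (-0.54, SE 0.44), and Snord53 averaged 5.48 ± 0.29 and 5.23 ± 0.13 (0.25, SE 0.16), in CR and HFD. The Snora34 difference was -0.81 without CR 1, -0.33 without CR 4, -0.30 without HFD 1, -0.22 without HFD 2 and -0.84 without HFD 4, and that of Snord53 was 0.15 without CR 3.

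The sign of the C/D medians against HFD differed between the serial number sets. On arrays 1 to 8 alone, the CR minus HFD median was -0.53 over C/D genes, with 41 of 43 below 0, and on arrays 9 to 14 alone it was 0.26, with 7 of 43 below 0. On arrays 1 to 8, 22 of the 68 tested snoRNA genes had an unadjusted limma p under 0.05, against 772 of 13308 genes. None passed (smallest limma adjusted p = 0.0678). The split was chosen with the snoRNA values in view, so nothing is read from these p-values. H/ACA genes had -0.28 and 0.14 in the same sets. The CANA minus HFD median of C/D genes was -0.37 on arrays 1 to 8 and 0.12 on arrays 9 to 14, and that of H/ACA genes was 0.04 and 0.06. The C/D levels of the arrays behind these values are given above. No test was made of the difference between the sets.

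CANA was compared with CR to set the drug apart from lower weight. No snoRNA gene passed (smallest limma adjusted p = 0.519), where 20 of 13308 genes (0.15%) did. At an unadjusted p under 0.05 there were 4, Snora41, Snora73a, Snora78 and Snord53, against 8.43% of all genes. The median, CANA minus CR, was 0.00 over C/D genes and 0.04 over H/ACA genes, with 21 of 43 and 10 of 25 below 0, where 51.2% of all genes were. Both medians lay near 0 and changed sign with single arrays: without CANA 1 they were -0.18 and -0.14, and without CR 4 -0.04 and -0.03. The C/D median alone was below 0 without CANA 2 (-0.01), CR 2 (-0.02) or CR 5 (-0.02). On arrays 1 to 8 alone the medians were 0.21 and 0.28, and on arrays 9 to 14 alone -0.17 and -0.15. No snoRNA gene had CANA and CR arrays apart, against 1.42% of genes higher and 1.51% lower. Snora73a averaged 7.71 ± 0.71 in CANA and 6.99 ± 0.32 in CR (0.72, SE 0.28, adjusted p = 0.519), with CANA 2 at 8.73 as the highest value, and the difference was 0.38 without it. Snora41, within the elongation factor gene Eef1b2, averaged 4.78 ± 0.28 in CANA and 4.41 ± 0.16 in CR (0.37, SE 0.15, adjusted p = 0.532). Snord53 averaged 5.11 ± 0.34 in CANA and 5.48 ± 0.29 in CR (-0.37, SE 0.16, adjusted p = 0.556), and Snord47 averaged 10.98 ± 0.19 and 10.73 ± 0.11 in the same groups (0.25, SE 0.16, adjusted p = 0.717). Without CANA 3 the Snord53 difference was -0.21, and without CANA 1 that of Snord47 was 0.15.

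**Figure D5:**
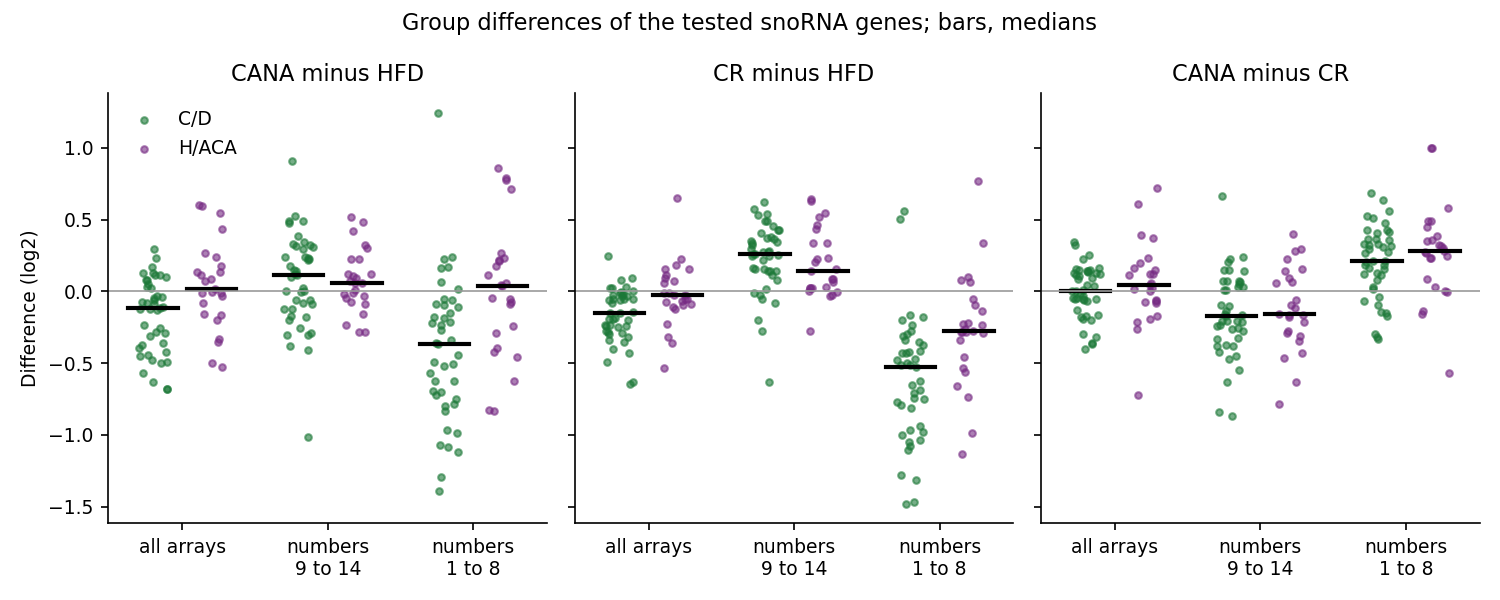
Differences between groups (log2) of the tested snoRNA genes, from all arrays and within serial numbers 9 to 14 and 1 to 8, for CANA minus HFD, CR minus HFD and CANA minus CR; points are genes and bars medians. The C/D median of CR minus HFD was 0.26 on arrays 9 to 14 and -0.53 on arrays 1 to 8.

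The precision for snoRNA genes was low. The 95% confidence interval of a tested snoRNA gene reached a median of 0.60 to either side of the difference in CANA against HFD and 0.56 in the other 2 comparisons, against 0.26 and 0.24 over all genes tested. A missed threshold here does not show that the groups had equal levels. The spread of the class level within groups was as large as any distance between them: for C/D genes it averaged -0.05 ± 0.52 in CANA, -0.05 ± 0.25 in CR and 0.11 ± 0.64 in HFD, and for H/ACA genes 0.03 ± 0.34, -0.02 ± 0.16 and -0.01 ± 0.38 (SD, n = 4, 5 and 4).

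In the other lists, no gene of snoRNP proteins, assembly, trimming, non-coding hosts, RNA polymerase I, Cajal body RNAs, other short structured RNAs, histones or ribosomal proteins passed in any of the 3 comparisons. Over all genes tested, 0.165% passed in CANA against HFD, 0% in CR against HFD and 0.15% in CANA against CR. With shares this small, nothing is read from the counts in these lists. Of the 138 tested microRNA genes 1 passed, higher in CANA than in HFD, and this count is not read either. Nop56, the C/D core protein, had a CR minus HFD difference of 0.33 (SE 0.13, limma adjusted p = 0.999), and Nop58 a CANA minus HFD difference of 0.32 (SE 0.17, adjusted p = 0.623).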

How the data were processed

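Per the labels, total liver RNA (250 ng) extracted with TRIzol was labelled by the Affymetrix WT Plus protocol. The deposited log2 values are the authors' RMA output from Affymetrix Expression Console, per the submitters' processing notes, which name no version. The 41345 probe sets were named through the platform annotation: 23521 had 1 symbol (23328 matched RefSeq) and 1814 had several. Short RNAs bind few probes, and how well the extraction and labelling kept them is not given. One probe set per gene (highest mean) was used, and genes below the 40th percentile of the mean were left out.

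Groups were compared with limma 3.58.1 (R 4.3.3) in 1 fit to all 13 arrays, 10 residual and 5.71 prior degrees of freedom, two-sided, with Benjamini-Hochberg adjustment over 13308 genes and a threshold of 0.05. The pipeline was tested on simulated data. A gene was named for the largest difference by serial number, opposite sign, highest mean, smallest p or a known role. Probe sets of near-identical snoRNAs may share signal. Alternatives covered filters, normalization, variance models, probe-set means, array weights, serial number, a replicate block and leaving out each array. Members, lists, named genes and the serial-number sets were chosen with earlier results of these data known. Scanner files were not used here, and the host genes of some members are not reported here. Precision is limited by how many arrays there are.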

Additional observations from a re-analysis of the deposited data

Results flagged for a closer look

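In 11 of the 96 sets of values examined (a named snoRNA gene, or a class level, in a group), a single array stood far from the others of its group by Dixon's criterion. For a single set picked beforehand, chance gives this in about 1 of 20. Genes were named partly from the values of these arrays and C/D genes varied together, so the 11 sets are not read against that rate. CANA 1 was the high array in 6 of them: Snora62 at 9.77 (others 8.31 to 8.41), Snora69 at 8.35 (5.08 to 5.60), Snord118 at 7.57 (5.66 to 5.87), Snord47 at 11.27 (10.86 to 10.91), Snord73a at 7.82 (4.69 to 5.08) and Snord99 at 12.28 (10.85 to 11.06). CR 1 was high for Snord35b at 7.45 (5.27 to 5.90) and Snord99 at 12.12 (11.18 to 11.41), and low for Snora73b at 6.53 (7.32 to 7.59). Snord13 was high in CANA 2 at 11.72 (9.24 to 9.54) and in HFD 3 at 11.15 (9.28 to 9.51).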

How the results depend on the processing

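No snoRNA gene was called in any of the 3 comparisons under any of 29 settings, leaving out each array included (0 to 0). The lowest adjusted p was 0.114 for CANA against HFD, 0.0678 for CR against HFD and 0.119 for CANA against CR, and of 68 snoRNA genes 1 to 15, 0 to 22 and 1 to 9 had an unadjusted p under 0.05. At the highest counts (without CANA 1, on arrays 1 to 8 and on arrays 9 to 14), 1304, 772 and 910 of 13308 genes did. At the lowest (for example without HFD 1, with all arrays and without CANA 2), 1093, 498 and 1027 did. The serial-number sets were chosen with the snoRNA values in view, so nothing is read from p-values within them. The counts over all genes at an adjusted p under 0.05, 22, 0 and 20, ranged over 0 to 46, 0 to 1 and 0 to 26. In CANA against HFD, the count was 38 without CANA 1, 5 without CANA 2, 3 without CANA 3, 11 without CANA 4, and 10, 6, 5 and 7 without HFD 1, 2, 3 and 4. In CANA against CR it was 9, 7 and 8 without CANA 2, 3 and 4, and 8, 8 and 12 without CR 1, 2 and 4. In CANA against HFD it was 12 with no filter, 14 and 39 with filters at the 20th and 60th percentile, 40 with the serial number as a covariate and 46 with its set as a term. On arrays 1 to 8 alone the counts were 2 and 5 in CANA against HFD and CR, and on arrays 9 to 14 alone 0. The labels do not say that replicate numbers pair the arrays. The r of same-numbered deviations was 0.30, 0.02, 0.17 and 0.17 for CANA and HFD, 0.21, 0.13, -0.14 and 0.11 for CANA and CR, and -0.15 to 0.12 for CR and HFD. Arrays with different numbers gave -0.32 to 0.18, -0.23 to 0.18 and -0.21 to 0.25 in the same order. In no comparison did every same-numbered pair exceed 0.1, and the arrays were not treated as pairs in the main fit. With the replicate block no snoRNA gene was called, the C/D medians were -0.12, -0.13 and -0.02 and 29, 1 and 17 genes were called. Leaving out 1 array moved the C/D medians over -0.33 to 0.07, -0.38 to 0.06 and -0.18 to 0.17, and the H/ACA medians over -0.13 to 0.14, -0.18 to 0.09 and -0.14 to 0.18, so the sign of none was kept.

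For arrays 9 to 14 minus arrays 1 to 8, leaving out 1 array gave -0.71 to -0.52 for C/D genes (23 to 29 lower by over 0.5) and -0.44 to -0.35 for H/ACA genes (9 to 11). Within CR alone the medians were -0.26 (8 C/D genes) and -0.21 (5 H/ACA genes), and within HFD alone the C/D median was -1.14 (39 genes), and the cause was not tested. Snord53 in CR against HFD turned to -0.0819 on arrays 9 to 14. The settings with the group as a term and with probe sets of several symbols added were chosen after seeing the data and gave C/D medians of -0.64 and -0.61 and H/ACA medians of -0.39 and -0.39. Values of RMA near the lower limit carry little signal over background, which limits the dimmest genes.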
